A study of Rattus norvegicus with 20 samples.

Results

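The genes of sphingolipid metabolism were followed in messenger RNA of male rats given Maresin 1 (MaR1), a lipid mediator made from docosahexaenoic acid. The 34 genes were chosen by name, as the enzymes, inhibitors and receptors of the pathway, and all 34 were found among the 30560 genes of the deposited table. The animals, of genotype WT in the labels, which give no strain, received a blood pressure telemeter at 8 weeks of age and later ate a diet with 4% NaCl for 3 weeks. Over those weeks a subcutaneous minipump delivered vehicle (labelled control) to 5 rats, RB030 to RB034, and MaR1 at up to 1.3 µg/kg/day to the other 5, RB035 to RB039. Both groups therefore share the salt diet, and no normal-salt animals were analysed here. Each animal gave 1 library of left ventricle and 1 of cortex from a single kidney, which makes 20 libraries in 4 groups of 5.

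Sphingolipids are built in the endoplasmic reticulum, where serine palmitoyltransferase joins serine to a fatty acyl chain and ceramide synthases add a second chain to the reduced product. A desaturase then gives ceramide, which is converted to sphingomyelin, glucosylceramide, galactosylceramide or ceramide 1-phosphate, or is cleaved to sphingosine and phosphorylated to sphingosine 1-phosphate (S1P). S1P acts on G protein-coupled receptors that control vascular tone, endothelial barrier function and lymphocyte traffic, and the kidney is rich in sphingolipids with hydroxylated and very long chains.

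In these data the pathway differed between the organs and was nearly level between vehicle and MaR1. The widest organ gaps separated members of one enzyme family. Degs2 and Sgms2 were high in kidney and at a small fraction of that level in heart. On the scale of the deposited values, the levels of their paralogs Degs1 and Sgms1 differed by just under 2-fold. The 300 bases around the start of these 4 genes are shown so that the paralogs can be compared. They come from RefSeq on GRCr8 (250 bases before the start and 50 after it, all on the minus strand, printed 5′ to 3′ as transcribed), with the GC box GGGCGG or its complement CCGCCC in capitals. Degs1 (ENSRNOG00000003223 in the deposited table) lies at chr13:96485253-96485552, Degs2 (ENSRNOG00000011716) at chr6:133377628-133377927, Sgms1 (ENSRNOG00000012536) at chr1:239672844-239673143 and Sgms2 (ENSRNOG00000011284) at chr2:222590758-222591057.
Degs1: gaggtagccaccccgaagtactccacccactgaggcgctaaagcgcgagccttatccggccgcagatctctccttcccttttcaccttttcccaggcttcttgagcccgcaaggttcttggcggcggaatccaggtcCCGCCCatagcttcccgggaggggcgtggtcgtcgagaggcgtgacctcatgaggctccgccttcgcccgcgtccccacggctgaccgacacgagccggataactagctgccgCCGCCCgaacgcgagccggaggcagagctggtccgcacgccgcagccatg
Degs2: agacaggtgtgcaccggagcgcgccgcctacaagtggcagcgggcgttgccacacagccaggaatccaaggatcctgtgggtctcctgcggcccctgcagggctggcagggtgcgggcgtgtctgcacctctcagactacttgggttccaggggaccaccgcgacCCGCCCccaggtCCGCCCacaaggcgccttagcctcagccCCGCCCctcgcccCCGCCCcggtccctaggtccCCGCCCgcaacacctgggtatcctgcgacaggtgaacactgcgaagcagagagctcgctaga
Sgms1: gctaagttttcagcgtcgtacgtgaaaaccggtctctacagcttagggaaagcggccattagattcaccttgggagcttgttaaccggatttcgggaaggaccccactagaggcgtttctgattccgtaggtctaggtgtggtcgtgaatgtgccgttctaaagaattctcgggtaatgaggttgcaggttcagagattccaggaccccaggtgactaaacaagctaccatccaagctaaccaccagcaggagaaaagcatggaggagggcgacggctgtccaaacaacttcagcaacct
Sgms2: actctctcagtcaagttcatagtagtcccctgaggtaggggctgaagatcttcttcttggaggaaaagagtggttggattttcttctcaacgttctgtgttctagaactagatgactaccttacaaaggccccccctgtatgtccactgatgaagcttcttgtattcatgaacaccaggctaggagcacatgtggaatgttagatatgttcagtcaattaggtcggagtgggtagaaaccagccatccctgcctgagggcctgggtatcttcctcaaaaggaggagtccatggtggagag
The Degs2 window held 5 GC boxes and 23 CpG dinucleotides, and that of Degs1 held 2 boxes and 32 CpG. Both sphingomyelin synthase windows lacked the box, with 14 CpG for Sgms1 and 2 for Sgms2. The RefSeq table held windows for 30 of the 34 members, of which 29 had 1 start. A GC box on either strand was found in 22 of these 29 windows, and in 33.1% of all 33469 windows of this length. None of the 29 held TATAAA on either strand, which 14.2% of all windows held. The median CpG count was 23 for the members and 7 for all windows, and Sptlc3, Asah2 and Sgms2 had 2 CpG each. These are descriptions of letters in a window, and no factor binding was measured.

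Depth ranged from 19383232 to 30342034 fragments per library. The deposited values are FPKM, fragments per kilobase of gene scaled for library size, which allow levels to be compared between genes. Genes with a mean of at least 1 FPKM in the libraries compared were tested with limma on log2(FPKM + 0.5), a scale that understates the change of low genes, and a gene was called at a Benjamini-Hochberg adjusted p under 0.05 over all genes tested. The organ labels matched the content: 7 ventricular muscle markers summed to 12045 to 19966 FPKM in heart libraries and 0.450 to 1.44 in kidney libraries, and 5 thick limb and distal tubule markers to 614 to 1809 in kidneys and 0.654 to 4.03 in hearts. The pieces of tissue were not uniform. The 6 inner medulla markers summed to 4.62 to 8.34 FPKM in vehicle kidneys and 8.92 to 52.5 in MaR1 kidneys, although the tissue is labelled cortex, and the 2 ranges did not overlap. Urothelium markers were raised in kidneys RB034, RB036, RB038 and RB039, with the highest sum, 86.2, in RB039, whose adipocyte markers also summed to 383 against 9.82 to 58.7 in the other kidneys. Atrial markers were present in all hearts and above a Myl7 level of 5 FPKM in RB031, RB033, RB034, RB035 and RB038. In bulk tissue, fewer cells of a type and less RNA per cell cannot be told apart.

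**Figure D1:**
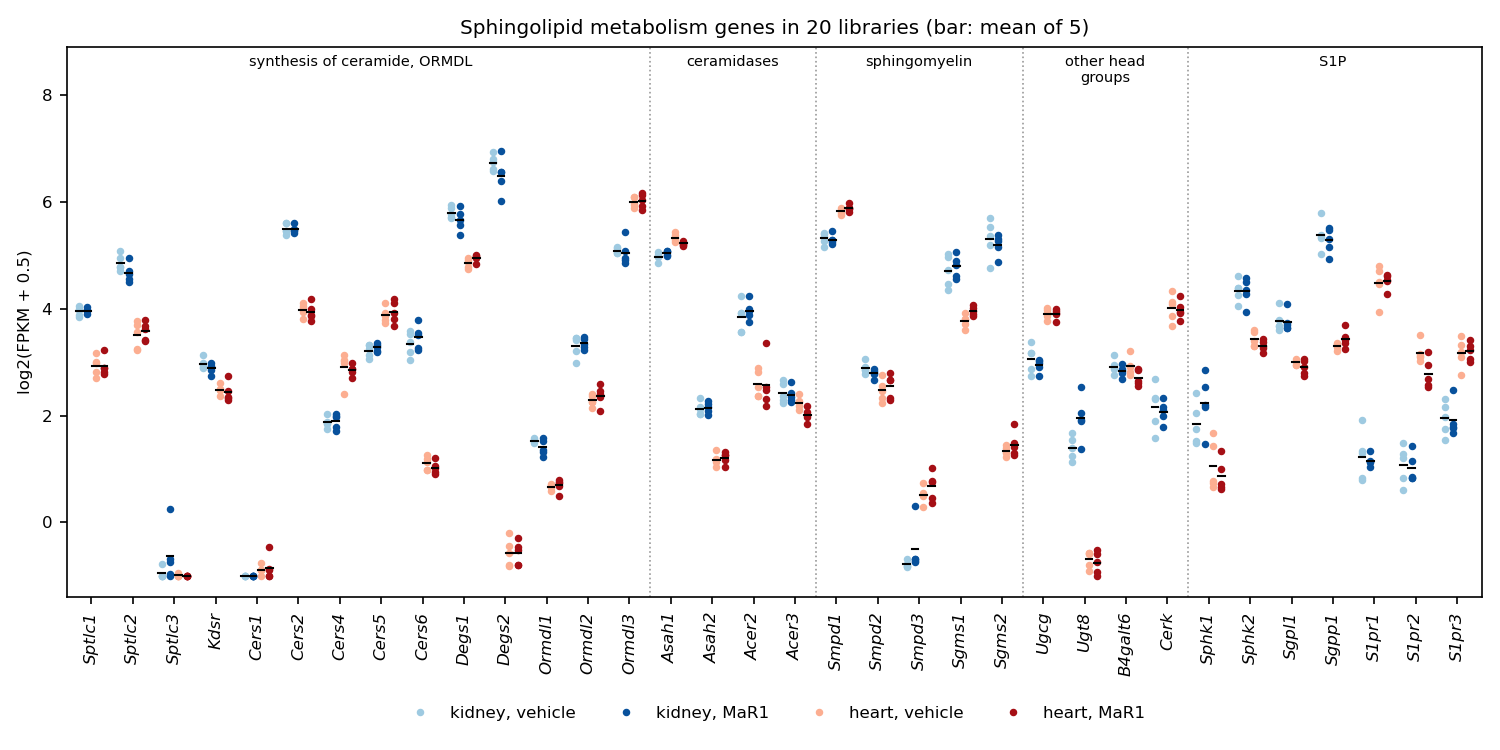
Level of each member in every library on a log2(FPKM + 0.5) axis, 1 point per animal and a bar for the mean of 5, with dotted lines between functional groups. Light and dark points of the same colour (vehicle and MaR1) overlap for every member, whereas blue (kidney) and red (heart) points lie apart for most.

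The first question was how the 2 organs differ in this pathway. Among vehicle animals, 29 of the 31 members tested differed between heart and kidney (93.5%), against a background of 77% of all genes tested. Of these, 10 were higher in heart (background 37%) and 19 lower (background 40%). The median log2 fold change of heart over kidney was -0.79 for the members and -0.03 for all genes tested. At a change of at least 2-fold, 5 members were higher (background 18.7%) and 10 lower (background 18.4%) in heart. For 28 of the 31 the 5 hearts and 5 kidneys did not overlap, as for 65.9% of all genes. In MaR1 animals, which are separate rats, 29 of 31 were called again against a background of 78.2%, 10 higher (37.9%) and 19 lower (40.3%). At least 2-fold changes were 4 higher (18.5%) and 11 lower (18.4%), and 29 of 31 did not overlap (66.8%). Acer3 and B4galt6 were not called with vehicle, and Smpd2 and B4galt6 were not called with MaR1. With the animal as replicate block, Smpd2 passed with MaR1 (adjusted p = 0.0298). Sptlc3, Cers1 and Smpd3 were too low to be tested between organs, and Degs2 and Ugt8 passed the level filter through kidney alone and so had to differ. Both are among the called, lower, at least 2-fold and non-overlapping members counted above, where they are not read against the background.

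**Figure D2:**
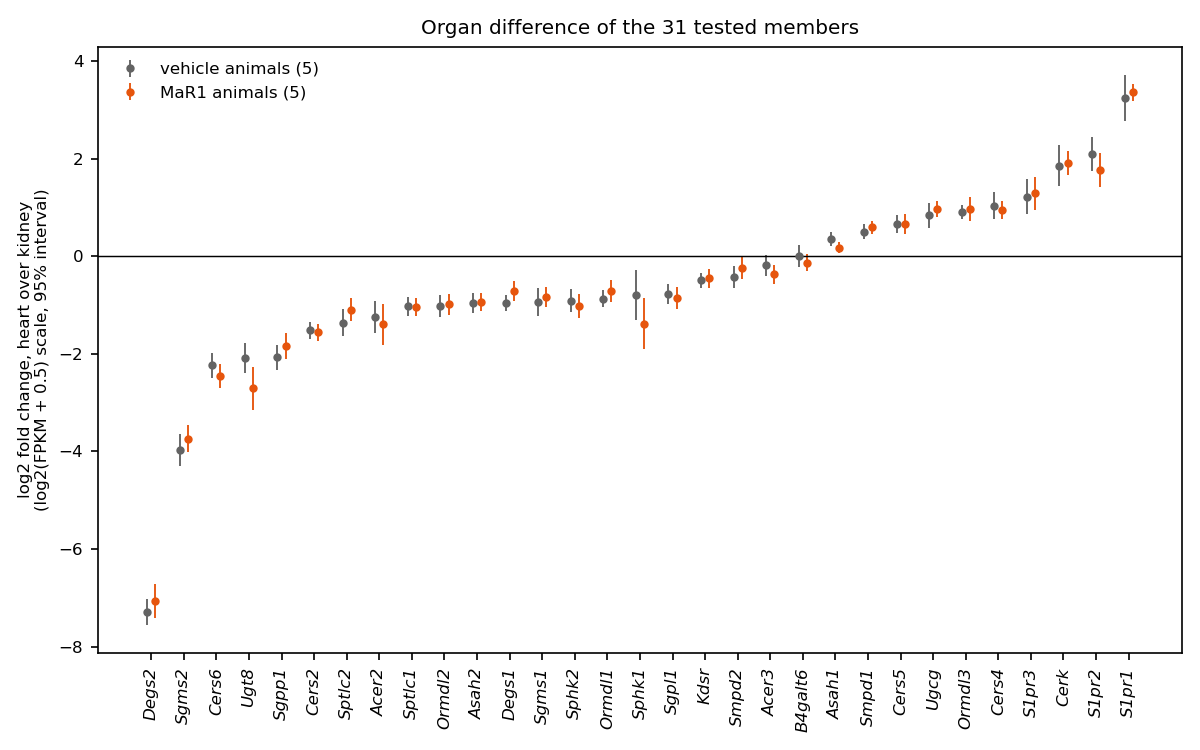
Log2 fold change of heart over kidney, with 95% intervals, for the 31 tested members in vehicle animals (grey) and MaR1 animals (orange), ordered by the vehicle value. Degs2 lies lowest, at -7.30 and -7.07, and S1pr1 highest, at 3.25 and 3.36.

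The first enzymes of the route were higher in kidney. Sptlc1 and Sptlc2 encode the catalytic core of serine palmitoyltransferase, the rate-limiting step. Sptlc2 stood at 33.5, 26.9, 25.7, 30.5 and 27.1 FPKM in the vehicle kidneys and at 12.5, 8.84, 8.96, 13.2 and 11.4 in the hearts of the same animals. Every kidney was above every heart, and the log2 fold change was -1.36 ± 0.12 (SE; adjusted p = 7.85e-07). Sptlc1 averaged 15.02 ± 0.891 FPKM in kidney and 7.18 ± 0.934 in heart (SD, n = 5), a log2 fold change of -1.02 ± 0.09. Sptlc3, a subunit that lets the enzyme use other acyl chains, was listed at 0 in 4 of 5 vehicle kidneys, and the highest of all 20 libraries was the MaR1 kidney RB039 at 0.693 FPKM. Sptlc2 made up 99.94% of the summed FPKM of these large subunits in vehicle kidney and 99.97% in vehicle heart. Kdsr, the reductase of the second step, averaged 7.37 ± 0.531 FPKM in vehicle kidney and 5.10 ± 0.326 in heart (log2 fold change -0.49).

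The ORMDL proteins hold serine palmitoyltransferase back when ceramide is plentiful, and their messages split by organ. Ormdl3 was the highest of the family in both organs and rose from 32.6, 34.9, 33.2, 32.3 and 34.6 FPKM in vehicle kidneys to 67.7, 62.8, 58.8, 61.1 and 67.4 in hearts. The groups were far apart relative to their spread, with a log2 fold change of 0.91 ± 0.06 (adjusted p = 7.60e-08). Ormdl1 and Ormdl2 went the other way, at -0.86 ± 0.08 and -1.02 ± 0.10. Ormdl3 accordingly held 74.0% ± 1.81 of the family's FPKM in vehicle kidney and 92.1% ± 0.856 in vehicle heart (SD, n = 5).

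The ceramide synthases set the acyl chain of ceramide, and their mixture differed between the organs. Cers2, which makes very long-chain ceramides, stood at 41.1, 48.1, 43.2, 43.2 and 48.1 FPKM in vehicle kidneys and at 14.8, 16.0, 13.5, 16.8 and 15.6 in hearts. No heart came near a kidney, and the log2 fold change was -1.52 ± 0.08 (adjusted p = 3.61e-09). Cers6, which favours palmitoyl chains, fell further, from 9.75 ± 1.59 to 1.66 ± 0.184 FPKM (log2 fold change -2.24 ± 0.11). Cers5, with a similar chain preference, was higher in heart, at 14.3 ± 1.52 against 8.81 ± 0.697 FPKM, and so was Cers4, which makes long-chain ceramides, at 7.16 ± 1.35 against 3.18 ± 0.258. Cers2 therefore held 67.3% ± 1.02 of the summed synthase FPKM in vehicle kidney and 39.8% ± 2.03 in vehicle heart. Cers5 held 13.3% ± 1.82 and 37.2% ± 2.84, Cers4 held 4.79% ± 0.499 and 18.5% ± 3.06, and Cers6 held 14.6% ± 1.56 and 4.33% ± 0.646. Cers1, known for stearoyl ceramide in muscle and brain, was listed at 0 in all 10 kidneys and reached at most 0.228 FPKM in a heart. Within each organ the shares of the MaR1 animals were close to these, at 65.8% ± 2.70 for Cers2 in kidney and 39.0% ± 1.91 in heart.

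**Figure D3:**
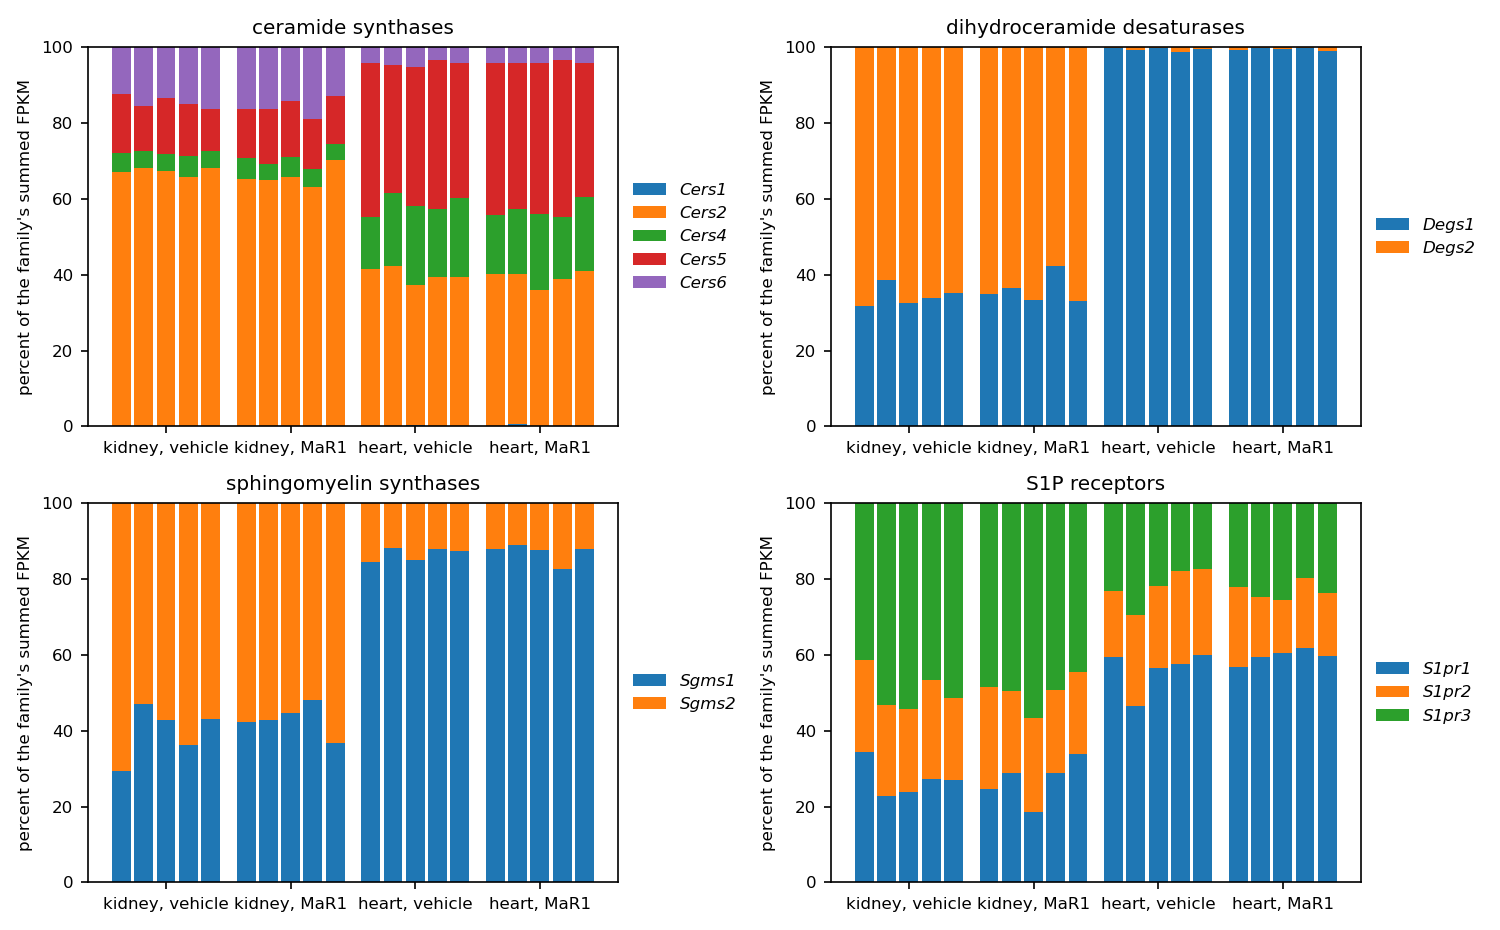
Share of each gene in the summed FPKM of its family, 1 bar per library in 4 groups of 5, for ceramide synthases, dihydroceramide desaturases, sphingomyelin synthases and S1P receptors. The bars change between organs (Cers2 from 67.3% to 39.8%, Degs2 from 65.7% to 0.638%, Sgms2 from 60.3% to 13.4% and S1pr1 from 27.1% to 55.9% in vehicle animals) and resemble each other within an organ.

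The desaturases complete ceramide. Degs2, which can also hydroxylate the base to give phytoceramide, was the highest member in kidney. It stood at 111, 97.0, 121, 106 and 95.5 FPKM in vehicle kidneys and at 0.0702, 0.238, 0.0779, 0.366 and 0.170 in the hearts, where 2 to 14 fragments stood behind each value. The fitted log2 fold change was -7.30 ± 0.12, which the pseudocount holds below the ratio of the levels. Degs2 passed the level filter through kidney alone, so its p-value is not read. Each vehicle heart held 0.0661% to 0.345% of the mean vehicle kidney level of Degs2, and the median of 10 proximal tubule markers in the same hearts was 0.0308% to 0.171% of kidney (Aqp1 left out, since endothelium expresses it too). Degs2 was above that median in 4 of these 5 hearts. In the MaR1 hearts the ranges were 0.0706% to 0.298% for Degs2 and 0.0685% to 0.403% for the markers. Carry-over of kidney sequence into the heart libraries was not tested. Degs1, the general desaturase, averaged 55.4 ± 4.22 FPKM in vehicle kidney and 28.4 ± 1.74 in heart, a log2 fold change of -0.95 ± 0.07. Degs1 thus held 99.4% ± 0.404 of the desaturase FPKM in heart and 34.4% ± 2.69 in kidney.

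Sphingomyelin synthesis showed the same kind of split. Sgms1 encodes the Golgi synthase and Sgms2 a synthase that also works at the plasma membrane. Sgms2 stood at 51.6, 36.2, 26.6, 45.5 and 40.8 FPKM in vehicle kidneys and at 2.13, 1.98, 2.23, 1.85 and 1.95 in hearts. The kidneys varied by nearly a doubling among themselves while the hearts were tight, and the log2 fold change was -3.97 ± 0.15 (adjusted p = 1.91e-10). Sgms1 fell less, from 26.1 ± 5.39 to 13.1 ± 1.11 FPKM (log2 fold change -0.94 ± 0.13). Among the sphingomyelinases, lysosomal Smpd1 led in both organs, with 39.4 ± 2.91 FPKM in kidney and 56.1 ± 1.89 in heart (log2 fold change 0.51 ± 0.07, and -0.14 after rescaling libraries to equal totals), while the neutral enzyme Smpd2 was lower in heart (-0.42 ± 0.10). Smpd3, the neutral enzyme tied to exosome release and bone mineralization, averaged 0.939 ± 0.159 FPKM in vehicle heart and 0.0817 ± 0.0231 in vehicle kidney.

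Ceramidases release sphingosine. Acid ceramidase Asah1 was the most abundant of them in both organs and slightly higher in heart, at 39.9 ± 2.20 against 30.97 ± 1.59 FPKM (log2 fold change 0.36 ± 0.07, adjusted p = 0.000313), but lower after rescaling (-0.29). The Golgi alkaline ceramidase Acer2 fell from 14.0 ± 2.90 to 5.62 ± 1.06 FPKM in heart (-1.25 ± 0.15), and the neutral ceramidase Asah2 from 3.89 ± 0.386 to 1.76 ± 0.190 (-0.96 ± 0.09). Acer3, an alkaline ceramidase for unsaturated chains, differed by -0.18 (95% interval -0.40 to 0.03, adjusted p = 0.112) with vehicle and by -0.37 (adjusted p = 0.00289) with MaR1.

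Among enzymes that modify ceramide, glucosylceramide synthase Ugcg (14.5 ± 1.02 FPKM in vehicle heart, 7.99 ± 1.501 in kidney) and ceramide kinase Cerk were higher in heart. Cerk stood at 5.90, 3.22, 4.45, 4.49 and 2.49 FPKM in vehicle kidneys and at 17.03, 12.2, 14.0, 19.7 and 16.5 in hearts. All hearts exceeded all kidneys, with a log2 fold change of 1.86 ± 0.19 (adjusted p = 2.61e-06). Galactosylceramide synthase Ugt8, which starts the route to sulfatide, ran the opposite way, from 2.16 ± 0.406 FPKM in vehicle kidney to 0.124 ± 0.0672 in heart, where 2 to 17 fragments stood behind each value. B4galt6, a lactosylceramide synthase, lay at 0.01 with a 95% interval of -0.21 to 0.23 with vehicle, and at -0.62 after rescaling.

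On the S1P side, enzymes were higher in kidney and receptors higher in heart. The kinases Sphk1 (-0.79 ± 0.24) and Sphk2 (-0.91 ± 0.11), the lyase Sgpl1 that ends the pathway (-0.78 ± 0.09) and the phosphatase Sgpp1 (-2.07 ± 0.12) were lower in heart with vehicle. The Sphk1 call was lost without RB031 (adjusted p = 0.0548). Sgpp1 stood at 32.2, 41.1, 40.0, 39.6 and 55.0 FPKM in vehicle kidneys and at 9.75, 9.18, 8.79, 9.68 and 9.49 in hearts. S1pr1, the receptor that holds endothelial barriers closed, stood at 3.26, 1.23, 1.96, 2.01 and 1.28 FPKM in those kidneys and at 27.5, 14.8, 22.1, 25.7 and 21.5 in the hearts. The lowest heart was still several times the highest kidney, and the log2 fold change was 3.25 ± 0.22 (adjusted p = 4.71e-08). S1pr2, a receptor that opposes its effect on the endothelial barrier, followed at 2.10 ± 0.16, and S1pr3, which drives vascular tone, at 1.22 ± 0.16. S1pr3 held the largest share of receptor FPKM in vehicle kidney, 49.4% ± 5.32, and S1pr1 in vehicle heart, 55.9% ± 5.45. The 8 endothelium markers were also higher in heart, all 8 called, with sums of 315 to 410 FPKM in vehicle hearts and 73.3 to 104 in vehicle kidneys. As ratios of group means, S1pr1 was 11.4, S1pr2 5.18 and S1pr3 2.52 times higher in heart, beside 4.04 for the summed markers and 1.96 to 10.8 for single markers. The part of endothelial content in the receptor difference was not tested.

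The organ directions rest on how libraries are scaled. The deposited values centre the median gene, and after rescaling each library to the same FPKM total the median of all genes tested moved from -0.03 to -0.65 with vehicle. The higher calls then made up 23.7% of all calls in place of 48.1%, and the members split into 6 higher and 22 lower. With MaR1 the share went from 48.4% to 24.7%, and the members split into 7 higher and 22 lower. Asah1 turned to -0.29 and Smpd1 to -0.14, and Cers5 (0.05), Ugcg (0.22) and, outside the members, Naaa (0.48) lost their calls. Acer3 (-0.81, adjusted p = 0.000429) and B4galt6 (-0.62, adjusted p = 0.00376) were then called with vehicle, and Smpd2 (-0.84, adjusted p = 7.47e-05) and B4galt6 (-0.73, adjusted p = 9.54e-05) with MaR1. Relative to that shifted median Asah1, Smpd1, Cers5 and Ugcg lay at 0.36, 0.51, 0.70 and 0.87. Degs1 (-1.603) and Sgms1 (-1.596) were beyond 2-fold after rescaling with vehicle, and lay at -0.953 and -0.946 relative to that median. Shares within a family do not depend on this scaling.

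The second question was whether MaR1 moved the pathway in either organ. No member was called in kidney (0 of 31) or heart (0 of 30) by limma, as no gene of the 12446 and 12237 tested was (background 0%). At an unadjusted p under 0.05 there was 1 member in kidney, Ugt8, against a background of 6.75%, and there were 3 in heart, S1pr2, Sgms1 and Acer3, against 4.6%. Without RB039 the kidney count was 5 (16.1%, background 14.1%), and with library weights it was 4 (background 19.1%). At a level filter of 5, which drops Ugt8, the kidney count was 0 (background 6.23%). The heart count was 0 after rescaling (background 2.17%) and 2 to 5 when each animal was left out (background 3.22% to 7.83%). With the animal as replicate block over both organs, 10 genes were called in kidney, no member among them. limma voom on the recovered fragments also called none of the members in either organ. It had 1 member in kidney (background 6.77%) and 4 in heart (background 4.49%) at an unadjusted p under 0.05. No member's MaR1 and vehicle values were fully apart in either organ, beside 1.23% of all genes in kidney and 0.842% in heart. The members' median log2 fold change was -0.04 in kidney and 0.01 in heart, and 0.00 and 0.01 for all genes tested. The 95% intervals lay within 1.5-fold for 29 of 31 members in kidney (all but Ugt8 and Sphk1) and for 28 of 30 in heart (all but S1pr2 and Sphk1), as for 83.5% and 86.9% of all genes tested. They lay within 2-fold for all tested members, and for 95.4% and 96.7% of all genes. These intervals were counted at the pseudocount of 0.5 only. The kidney log2 fold change of Ugt8 was 0.63 with a pseudocount of 0.1, 0.48 with 1 and 0.68 with limma voom.

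**Figure D4:**
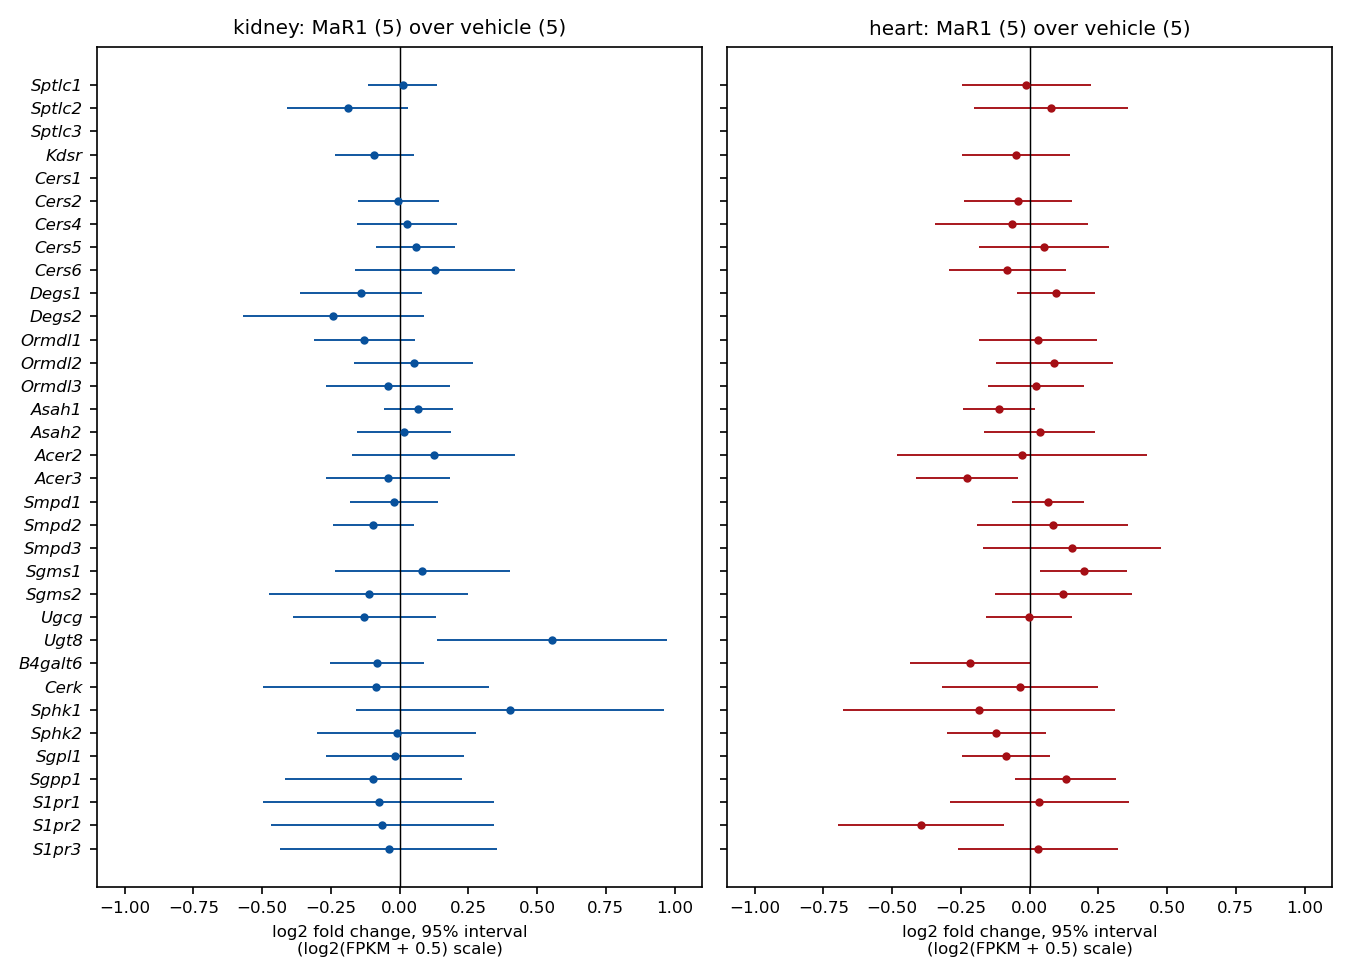
Log2 fold change of MaR1 over vehicle with 95% intervals for each member in kidney (left) and heart (right); members without a point were below the level filter. The points lie close to 0, from -0.24 (Degs2) to 0.55 (Ugt8) in kidney and from -0.40 (S1pr2) to 0.20 (Sgms1) in heart.

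In kidney the largest value was that of Ugt8. It stood at 1.70, 2.12, 2.70, 1.86 and 2.41 FPKM with vehicle and at 3.26, 3.23, 5.32, 3.62 and 2.08 with MaR1. All MaR1 kidneys but RB039 exceeded all vehicle kidneys, and RB039 fell among them (log2 fold change 0.55 ± 0.19, unadjusted p = 0.014, adjusted p = 0.663). The summed inner medulla markers of the same kidneys were 6.34, 6.73, 4.62, 5.51 and 8.34 FPKM with vehicle and 20.6, 16.3, 52.5, 33.3 and 8.92 with MaR1. The MaR1 kidneys stood in the same order in Ugt8 and in these markers, with RB037 highest and RB039 lowest. The vehicle kidneys did not: RB032 was highest in Ugt8 (2.70) and lowest in the markers (4.62), and RB034 was highest in the markers (8.34). All 5 of the inner medulla markers tested had an unadjusted p under 0.05 for MaR1, none called. Of the thick limb markers, 4 of 5 lay higher (3 at an unadjusted p under 0.05), with sums of 614 to 1216 FPKM with vehicle and 796 to 1809 with MaR1. Of the collecting duct markers, 4 of 5 tested lay higher (2 at that p), and all 6 podocyte markers lay lower (5 at that p), none of either list called. The part of the tissue sampled in the Ugt8 value was not tested. Ugt8 in the heart was too low to test (0.0983 ± 0.0850 FPKM with MaR1).

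Sphk1, the inducible sphingosine kinase, stood at 4.83, 3.65, 2.37, 2.85 and 2.29 FPKM in vehicle kidneys and 4.08, 3.97, 6.73, 5.33 and 2.26 in MaR1 kidneys. The MaR1 kidneys RB037 and RB038, the highest in inner medulla markers, lay above all vehicle kidneys, RB039 lay just below them all and the rest among them (0.40 ± 0.25, adjusted p = 0.812). Among vehicle kidneys, RB034 was the highest in these markers and the lowest in Sphk1 (2.29). Degs2 had values of 111, 97.0, 121, 106 and 95.5 FPKM with vehicle and 93.4, 93.8, 82.9, 64.1 and 123 with MaR1 (-0.24 ± 0.15, adjusted p = 0.812). RB038 was the lowest and RB039 the highest of all 10 kidneys. The summed proximal tubule markers did not follow that order, at 8840 FPKM in RB038 and 7610 in RB039. Kap was the largest part of both sums, at 4611 and 1982 FPKM, so the sums rest largely on that marker. Singly, 6 of the 11 markers were highest in RB039, 3 were lowest in RB038 and 2 were highest in RB038. In RB037, second lowest in Degs2 (82.9), 5 of the markers were at their lowest. With MaR1, 9 of the 11 lay lower and 2 higher, none of them called, and the part of tubule content in Degs2 was not tested. The other members of smallest p in kidney were Sptlc2 (-0.19 ± 0.10), Ormdl1 (-0.13 ± 0.08) and Smpd2 (-0.10 ± 0.07), each with an adjusted p of 0.755 or more.

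**Figure D5:**
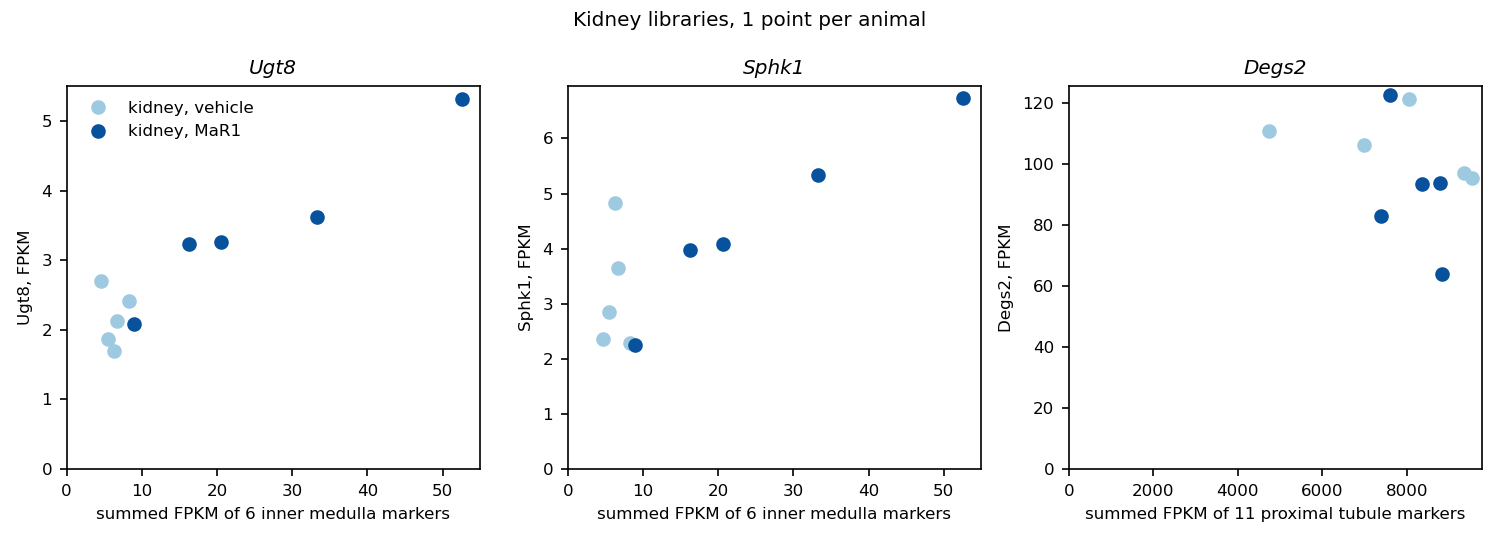
FPKM of Ugt8 and Sphk1 against the summed FPKM of 6 inner medulla markers, and of Degs2 against the summed FPKM of 11 proximal tubule markers, with 1 point per kidney library. The MaR1 kidney RB037 is highest in the inner medulla sum (52.5), in Ugt8 (5.32) and in Sphk1 (6.73). RB038, lowest in Degs2 (64.1), has a proximal tubule sum of 8840, of which Kap is 4611. Among vehicle kidneys, RB032 is highest in Ugt8 (2.70) and lowest in the inner medulla sum (4.62).

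These kidney values moved when kidneys were left out. Without RB036 and RB039, the MaR1 kidneys of highest adipocyte sums, 283 of all genes tested were called (81 higher, 202 lower) and still no member. Ugt8 then had a log2 fold change of 0.77 ± 0.17 (adjusted p = 0.0543), Sphk1 0.69 ± 0.23 and Degs2 -0.42 ± 0.13, and 6 of 31 members had an unadjusted p under 0.05 (19.4%) against 15.5% of all genes. The inner medulla sums of the 3 MaR1 kidneys that remain were 20.6, 52.5 and 33.3 FPKM. Leaving out the 4 kidneys marked by urothelium kept all vehicle kidneys but RB034, and of the MaR1 kidneys only RB035 and RB037. The inner medulla sums of RB035 and RB037 were 20.6 and 52.5 FPKM. In that small fit no gene was called (1213 at an unadjusted p under 0.05) and Ugt8 lay at 0.86.

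In heart the smallest p belonged to S1pr2. It stood at 8.09, 7.61, 8.42, 10.9 and 8.13 FPKM with vehicle and 8.59, 5.90, 5.47, 7.23 and 5.28 with MaR1. All MaR1 hearts but RB035 lay below all vehicle hearts, and RB035 lay above all of them except RB033 (-0.40 ± 0.14, unadjusted p = 0.0149, adjusted p = 1.00). Atrial markers summed to 3068, 2924, 487, 10082 and 5342 FPKM in the vehicle hearts and 5436, 665, 1005, 3291 and 367 in the MaR1 hearts, so the highest S1pr2 heart of each group was also its highest in these markers. The sum does not rank atrial content by itself: in RB030 it was mostly Nppa (3022 FPKM), with Myl7 at 0.318. Without the 5 atrium-marked hearts, which leaves 2 vehicle and 3 MaR1 libraries, S1pr2 lay at -0.53 ± 0.10 (unadjusted p = 0.00103, adjusted p = 0.317), and no gene was called.

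Sgms1 stood at 11.6, 14.6, 12.6, 13.4 and 13.5 FPKM in vehicle hearts and 14.1, 15.1, 16.3, 14.5 and 15.6 in MaR1 hearts. Only RB031 of the vehicle hearts reached into the MaR1 range (0.20 ± 0.07, unadjusted p = 0.0198, adjusted p = 1.00). Acer3 stood at 3.78, 4.81, 4.01, 4.36 and 4.27 FPKM with vehicle and 4.06, 3.08, 3.40, 3.55 and 3.71 with MaR1, where RB035 alone reached into the vehicle range (-0.23 ± 0.08, unadjusted p = 0.021, adjusted p = 1.00). B4galt6 (-0.22 ± 0.10), Asah1 (-0.11 ± 0.06) and Sgpp1 (0.13 ± 0.08) came next. No member differed between organs in its response at an adjusted p under 0.05 (background 0%), where 5.5% of all genes had an unadjusted p under 0.05. Ugt8 and Degs2 passed the level filter there through kidney alone, and their differences in response are not read. Among the others, Asah1 had the smallest p (-0.18 ± 0.07, unadjusted p = 0.0238, adjusted p = 0.852). Degs1 (0.24 ± 0.12) and Sphk1 (-0.59 ± 0.36) followed.

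The levels with MaR1 put the rest of the pathway beside the vehicle values given above. In kidney the MaR1 means were 15.1 ± 0.526 FPKM for Sptlc1, 44.6 ± 2.29 for Cers2, 50.5 ± 7.13 for Degs1, 32.9 ± 5.87 for Ormdl3, 32.5 ± 1.03 for Asah1, 38.8 ± 2.69 for Smpd1 and 38.8 ± 6.23 for Sgpp1 (SD, n = 5). Each of these lay within 1 vehicle SD of the vehicle mean except that of Degs1, whose animals overlapped between the groups. In heart the means were 7.11 ± 1.00 for Sptlc1, 14.9 ± 1.74 for Cers2, 30.4 ± 1.41 for Degs1, 64.7 ± 5.88 for Ormdl3, 58.8 ± 2.46 for Smpd1, 22.5 ± 2.14 for S1pr1 and 15.4 ± 1.99 for Cerk. S1pr1, the receptor with the highest level in heart, thus differed by less than its spread (22.3 ± 4.86 with vehicle). Of the means listed for heart, those of Degs1 and Smpd1 lay more than 1 vehicle SD above the vehicle mean. The mean of Asah1 lay more than 1 vehicle SD below it. Asah1 stood at 39.4, 41.3, 42.9, 38.3 and 37.5 FPKM in vehicle hearts and 37.3, 36.2, 35.8, 36.8 and 38.2 with MaR1. In all of these the animals overlapped between the groups.

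How much the members varied between animals of a group was close to other genes. The median coefficient of variation was 14.2% in vehicle kidney (12.3% for all genes of at least 1 FPKM there), 12.9% in MaR1 kidney (10.7%), 10.4% in vehicle heart (12.7%) and 11.5% in MaR1 heart (13.1%). The widest were S1pr1 in vehicle kidney (42.0%) and Sphk1 in vehicle heart (43.8%), and the tightest were Asah1 in MaR1 heart (2.53%) and in MaR1 kidney (3.18%). The vehicle kidney RB030 was the highest of its group in S1pr1, Cerk, Sgms2, Sphk1 and Ugcg, and the lowest in Sgpp1 and Sphk2. Its proximal tubule sum, 4729 FPKM, was the lowest of all kidneys, where the others ran from 6998 to 9539. Of the 11 single markers, RB030 was lowest of all kidneys only in Miox, Aqp1 and Kap, and RB037 or RB038 was lowest in the rest. Among vehicle kidneys RB030 was also lowest in Lrp2, Slc34a1, Slc13a3, Slc22a6 and Slc22a8, but not in Cubn, Slc5a2 and Slc5a12. The part of tubule content in its member values was not tested.

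Neighbouring genes of the pathway, from lists outside the 34 members, gave context for the organ split, where 37% of all genes tested were called higher and 40% lower in vehicle heart. Of 10 genes of lysosomal glycolipid breakdown, 8 were lower in vehicle heart and none higher, led by the galactosidase Glb1 (-2.94 ± 0.11) and the hexosaminidase subunit Hexa (-2.54 ± 0.11), while Psap and Gm2a, which encode helper proteins, were not called. Of 6 genes of complex glycolipid synthesis, 3 were lower and 1 higher. The globotriaosylceramide synthase A4galt lay at -3.82 ± 0.15, and Gal3st1, which turns the product of Ugt8 into sulfatide, at -2.80 ± 0.18. Of 6 genes of S1P transport and degradation, 4 were lower and 1 higher. Apom, the plasma carrier of S1P, averaged 189 ± 34.7 FPKM in vehicle kidney and 0.545 ± 0.150 in heart, and the lipid phosphatase Plpp2 lay at -4.70 ± 0.12. Of 8 partners of ceramide synthesis, 4 were lower and 2 higher, with Elovl7, a fatty acid elongase, at -3.08 ± 0.17 and Tlcd3b, a proposed ceramide synthase relative, at 2.78 ± 0.12. Of 4 transfer proteins, 3 were lower and 1 higher, with the ceramide carrier Cert1 at -0.59 ± 0.09 and Plekha8 at -0.42 ± 0.09. Of 7 other hydrolases and relatives, 3 were higher and 1 lower, with the sialidase Neu3 at 1.61 ± 0.17 and Naaa at 1.04 ± 0.18. In MaR1 animals, with 37.9% of all genes called higher and 40.3% lower, the counts in the same order of lists were 0 higher and 8 lower, 2 and 3, 1 and 4, 3 and 4, 0 and 1, and 3 and 1. With vehicle, Apom, Plpp2, Sgpp2, A4galt, Gal3st1, B4galnt1, Fa2h and Elovl6 passed the level filter through kidney alone, and Tlcd3b through heart alone. These genes therefore had to differ, and counts that hold them are not read against the background. With MaR1 the same held for all of them except Apom and Elovl6.

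None of these neighbours was called for MaR1 in either organ. The glycolipid transfer protein Gltp had the smallest p among them in kidney, at 11.7, 11.4, 11.1, 12.1 and 12.4 FPKM with vehicle and 14.3, 13.9, 18.998, 18.4 and 14.1 with MaR1. The groups did not overlap (0.41 ± 0.10, adjusted p = 0.569), and RB037 and RB038 were again highest. The S1P exporter Spns2 was apart in the other direction, at 33.7, 43.1, 42.7, 42.2 and 33.6 FPKM with vehicle and 31.7, 30.9, 25.7, 24.0 and 33.3 with MaR1 (-0.42 ± 0.11, adjusted p = 0.603). In heart Spns2 lay at 0.31 ± 0.12. Fa2h, the fatty acid hydroxylase (0.33 ± 0.13), and Gal3st1 (0.41 ± 0.18) also had an unadjusted p under 0.05 in kidney. None of the 10 lysosomal genes had an unadjusted p under 0.05 in kidney, and the smallest p was that of Hexa (-0.31 ± 0.14, unadjusted p = 0.0518). Without RB036 and RB039, Gltp (0.52, adjusted p = 0.037) and Hexa (-0.53, adjusted p = 0.0353) passed the threshold. In heart, Tlcd3b had the smallest p (-0.38 ± 0.10, adjusted p = 0.877), and Samd8, a sphingomyelin synthase relative, did not overlap between groups, at 7.09 to 8.09 FPKM with vehicle and 8.15 to 9.31 with MaR1 (0.16 ± 0.06, adjusted p = 1.00).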

How the data were processed

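Poly-A RNA libraries from kidney cortex and left ventricle were grouped by the treatment label, with the animal number as replicate, so replicates are separate rats. The authors deposited 1 table of FPKM values with a gene length column, per the file headers. Per the submitters' processing notes, fastp, HISAT2 2.0.5, StringTie 1.3.3b and featureCounts 1.5.0-p3 were used. No source read for this work names the genome build, and the GRCr8 promoter coordinates are therefore not on the table's own scale. The labels leave strandedness unstated, and reads of genes that overlap in antisense cannot be told apart.

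FPKM times length gave whole fragments (within 0.01) for 100% of the 371175 values above 0, and the library sizes the authors used match a median-of-ratios scaling. No 2 libraries were copies (smallest chi-square per degree of freedom 10.1). A mean of 1 FPKM or more was required of a gene, which was then tested on log2(FPKM + 0.5) with limma 3.58.1 in R 4.3.3 (variance trend, two-sided, Benjamini-Hochberg over all genes tested), each organ alone for treatment, 5 animals per group, and all 20 libraries for the difference in response. Organs were compared within each treatment. The steps were tested on simulated data. Marker lists matched 89 of 91 symbols and pathway lists 53 of 54.

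Kidney and heart of an animal form a pair by design. Deviations from the group means correlated within an animal at -0.02 to 0.14, above 0.1 in 2 of 10 animals, and 2 of 10 kidneys had their highest correlation with the heart of the same rat. The animal was left out of the reported fits and used as a block in an alternative. Pseudocounts of 0.1 and 1, a level filter of 5 or none, rescaling to equal FPKM totals, quantile normalization, limma voom, library weights, and leaving out each animal in turn were also tried. Fits without marked libraries and a joint fit without a block were added after seeing the data.

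The members and lists were chosen with earlier results of these data known. All 34 members were to be reported, with up to 6 fold changes per organ for treatment (smallest p), up to 4 for the difference in response, and up to 2 genes per neighbouring list and comparison. Psap and Gm2a were named after their values were seen. Figures were drawn with matplotlib.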

Additional observations from a re-analysis of the deposited data

Results flagged for a closer look

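In groups of 5, a library was singled out where its gap to the nearest other was more than 0.71 of the group's range. This held for 6 of 121 groups of members, and chance alone gives about 1 in 20. Sptlc1 stood at 8.86 FPKM in the MaR1 heart RB035 against 6.37 to 6.92 in the others, and Acer2 at 9.72 in the same heart against 4.03 to 5.27. That heart also had the highest fibroblast (1953) and Schwann cell (102) marker sums of all hearts, and the part of these cells was not tested. S1pr2 stood at 10.9 in the vehicle heart RB033 against 7.61 to 8.42, where atrial markers were highest. Cers4 was low in the vehicle heart RB030, at 4.82 against 7.36 to 8.33. In kidney, Sgpl1 stood at 16.5 in RB039 with MaR1 against 11.9 to 12.8, the kidney of highest urothelium and adipocyte sums, and S1pr3 at 5.10 in RB037 against 2.69 to 3.08.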

How the results depend on the processing

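No member was called for MaR1 in kidney or heart, or for the difference in response, in any alternative run. The kidney count of 0 genes rose to 10 with the animal as replicate block and to 10 in the joint model without a block, to 283 without RB036 and RB039, and lay at 0 to 1 when each animal was left out (1 without RB035). The difference in response had 1 gene with a pseudocount of 0.1, 1 after rescaling, 21 with library weights and 0 to 3 when each animal was left out. The heart count stayed at 0 throughout. When each animal was left out, genes at an unadjusted p under 0.05 ran from 486 (without RB038) to 1757 (without RB039) in kidney. In heart they ran from 394 (without RB037) to 956 (without RB035). With library weights there were 2378 such genes in kidney and 1090 in heart, and after rescaling 845 and 266. Without RB036 and RB039 there were 1926 in kidney. The block also called Smpd2 between the organs of MaR1 animals (adjusted p = 0.0298), as did the fit without RB036 (0.0414), and it changed no other call of a named gene. Among the values of named genes recomputed, those that changed sign were Naaa in kidney without the urothelium-marked kidneys (-0.0124), B3galnt1 in heart (-0.0934 to 0.0422 when each animal was left out) and B4galt6 between the organs of vehicle animals (-0.0297 to 0.0433 when each animal was left out, and -0.621 after rescaling). Rescaling also turned Smpd1 (-0.139 with vehicle, -0.0225 with MaR1) and Asah1 (-0.286 and -0.436), since it shifts the median gene. Acer3 passed between the organs of vehicle animals without RB031 (adjusted p = 0.0352) and with library weights (0.0367), and also after rescaling, as did B4galt6; with MaR1, rescaling called Smpd2 and B4galt6. Values near 0 FPKM (Degs2 and Ugt8 in heart, Sptlc3, Cers1) rest on few fragments. Groups of 5 animals, an unknown strain and pieces of tissue that differ in region limit what the treatment comparison can show.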
